A study of Mus musculus with 6 samples.

Results

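Matricellular glycoproteins are secreted proteins that sit in the extracellular matrix and signal to cells more than they bear load. The 10 genes described are Tnc, Tnxb, Fn1, Postn, Sparc, Spp1, Thbs1, Thbs2, Vcan and Bgn. They were found as array probes that are not controls and whose gene name equals one of these symbols, which gave 14 probes out of 39429. Each of the 10 genes had at least 1 probe that passed the filter on dim signal, so all 10 were among the 19060 genes tested. Sciatic nerve RNA came from 3 pools of OGT_SCKO mice and 3 pools of littermate controls (Ctrl), all aged 1 month and labelled as strain C56 BL6, with 1 array per pool. OGT_SCKO mice lack Ogt, the enzyme that puts the single sugar O-GlcNAc on nuclear and cytoplasmic proteins, in Schwann cells, which ensheathe and myelinate axons of the nerve. The Cre line, the deleted part of Ogt, the alleles that the littermate controls carry and the number of animals per pool are not given in the sources used here, so p-values measure the spread between pools.

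In peripheral nerve, matricellular proteins are made by Schwann cells, fibroblasts of the endoneurium and epineurium, perineurial cells, vessel cells and macrophages. Tenascins, fibronectin, periostin, osteopontin and the thrombospondins are read by cells through integrins, and several of them are known to be induced in nerve after injury, where they act on Schwann cell migration and axon growth. Versican and biglycan carry chondroitin or dermatan sulfate chains and bind hyaluronan or collagen. In RNA of whole nerve, fewer cells of a type and less RNA per cell cannot be told apart.

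Values below are log2 signals of a probe relative to the 75th percentile of its array, so 0 is the level of a fairly bright probe and each unit is a doubling. A level can be set against the same probe in another pool but not against another probe. The threshold for a change was an adjusted p under 0.05 from limma over all genes (Benjamini-Hochberg), and fold changes are OGT_SCKO over Ctrl. The labels were checked on Ogt, whose brightest probe read -0.89, -1.01 and -1.01 in the OGT_SCKO pools, against 0.46, 0.35 and 0.11 in the Ctrl pools (log2 change -1.28 with SE 0.13 and, by limma, adjusted p = 0.00117). Jun, the injury-response transcription factor named in the series title, was higher by 1.40 on the log2 scale (SE 0.12, adjusted p = 0.000704 by limma). An array measured between 59.0% and 65.2% of its probes well above background. All 3 OGT_SCKO arrays and Ctrl 2 share 1 slide and Ctrl 1 and Ctrl 3 the other, so a comparison within a slide rests on Ctrl 2 alone.

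The probe sequences that decide several of the results are shown because a gene's reading depends on which stretch of its transcript the probe binds. Each is 60 bases, written 5′ to 3′ in the sense of the transcript, with at least 1 reading frame free of stop codons and with positions of the files on the older mouse build mm9. Exons of mm9 were not analysed here. The first Tnc probe below covers 764 bases of genome and the Thbs2 probe 1264 bases, so both cross an intron.
Tnc, transcript base 2590, chr4:63674248-63675011, minus strand: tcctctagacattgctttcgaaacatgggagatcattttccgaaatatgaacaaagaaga
Tnc, transcript base 4868, chr4:63643728-63643787, minus strand: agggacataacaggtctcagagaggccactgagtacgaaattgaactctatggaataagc
Vcan, transcript base 1428, chr13:89851810-89851869, minus strand: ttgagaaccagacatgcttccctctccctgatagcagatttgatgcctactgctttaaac
Spp1, transcript base 628, chr5:104868502-104868561, plus strand: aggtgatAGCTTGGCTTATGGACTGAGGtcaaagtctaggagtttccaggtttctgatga
Thbs2, transcript base 3843, chr17:14804526-14805789, minus strand: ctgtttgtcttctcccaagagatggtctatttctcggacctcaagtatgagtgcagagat
Bgn, transcript base 927, chrX:70738554-70738613, plus strand: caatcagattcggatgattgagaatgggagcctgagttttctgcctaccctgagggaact
In the Spp1 probe the capitals mark the 21 bases that encode the site, next to the RGD sequence, that integrins with the alpha 4 or alpha 9 chain bind. Probes of the other genes and the remaining Vcan probes are not shown.

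Of the 10 matricellular genes, 6 rose in OGT_SCKO nerves, 4 did not pass and none fell. Tnc, Postn, Bgn, Vcan, Thbs2 and Fn1 were the genes that rose, by between 1.38-fold for Fn1 and 3.62-fold for Postn where a fold could be measured. Tnc had only a lower bound and entered the test through its OGT_SCKO arrays alone. Vcan rose by its brightest probe, and the mean of its usable probes had a log2 fold change of 0.09 (limma adjusted p = 0.674). Over all genes tested, 23.3% were called in either direction and 11.2% were called higher. With the filter on all 6 arrays, which leaves Tnc out, 5 passed (Postn, Bgn, Vcan, Thbs2 and Fn1), beside 4021 of 17823 genes. The median log2 fold change was 0.62 over the 10 genes, the same with Tnc at its bound, against -0.075 over all genes tested. The 10 genes were chosen with earlier results of these data known, so that choice may enter the median and the count called. The OGT_SCKO and Ctrl pools did not overlap in the 6 genes called and overlapped in the other 4, where 45.7% of all genes had no overlap. For Tnc the Ctrl values compared are background readings. For Postn, Bgn, Vcan, Thbs2 and Fn1 the exact two-sided permutation test over pools gave p = 0.1. That is the smallest value that 3 pools against 3 allow. With slide as a fixed block, which compares OGT_SCKO with Ctrl 2 alone, only Postn passed among the 10. The log2 fold changes of Thbs2, Fn1, Vcan, Bgn and Postn, all measured in both groups, were 0.50 to 1.53 there.

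**Figure D1:**
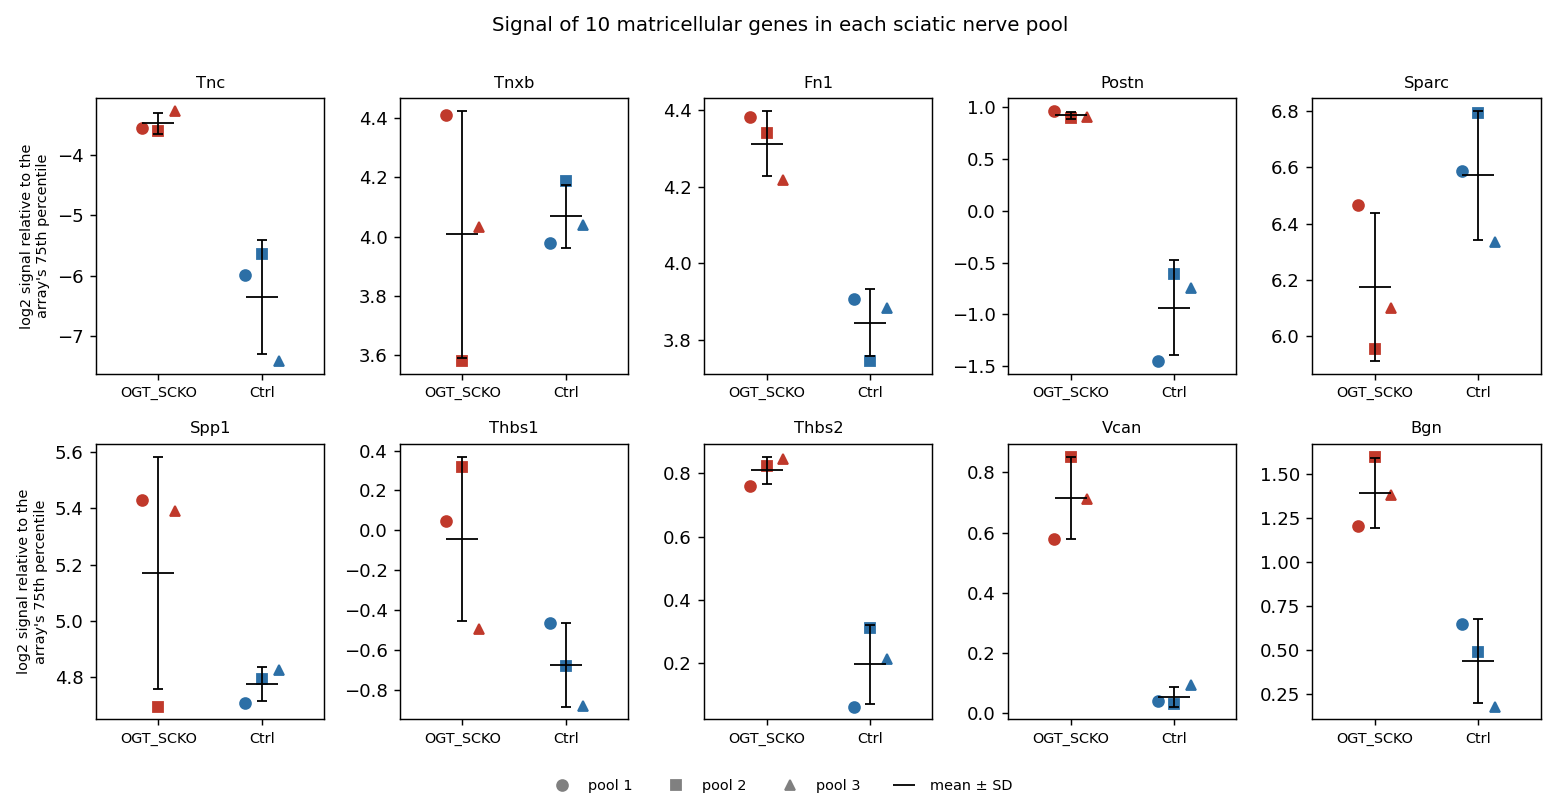
Log2 signal of each of the 10 genes (vertical axis, relative to the array's 75th percentile, scaled separately per gene) in the 3 OGT_SCKO and 3 Ctrl pools, with the marker shape giving the pool number and the bar the mean ± SD. The OGT_SCKO pools lie above every Ctrl pool for Tnc, Fn1, Postn, Thbs2, Vcan and Bgn, and the groups overlap for Tnxb, Sparc, Spp1 and Thbs1.

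**Figure D2:**
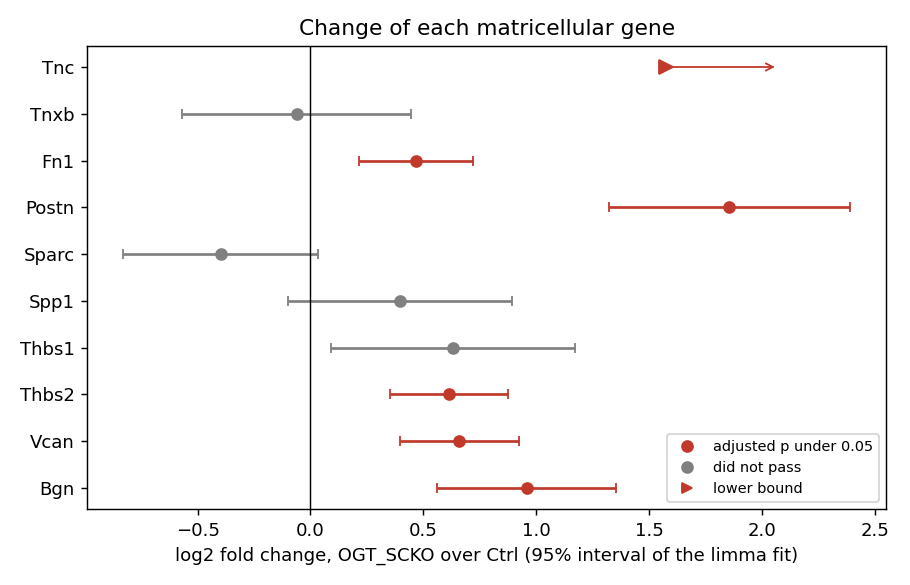
Log2 fold change of each gene (horizontal axis, OGT_SCKO over Ctrl) with its 95% interval from the limma fit; red points passed at an adjusted p under 0.05 and grey points did not. Tnc, drawn as a triangle, has only a lower bound and no interval. Postn has the largest measured change, and the intervals of Tnxb, Sparc and Spp1 include 0.

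Tenascins are large glycoproteins that loosen the contact between cells and matrix. Tnc, tenascin-C, the injury-associated member, read -3.56, -3.61 and -3.28 in the OGT_SCKO pools, against -5.99, -5.65 and -7.42 in the Ctrl pools, at its probe on transcript base 4868. Every OGT_SCKO array measured it well above background and no Ctrl array did, so only a lower bound can be given. With the background treatment and scaling used here, Tnc was at least 2.98-fold higher in OGT_SCKO nerves. Its adjusted p of 0.00599 (limma) comes from the fit that takes the Ctrl background readings as they are. With low values raised to the lowest signal well above background, the log2 difference of 1.57 is the same bound again. All 3 Ctrl readings lay under those floors (-5.27, -4.64 and -5.26), so that fit compares OGT_SCKO with floors and its p-value is not given. Tnc passed the filter on dim probes only through the group where it was high. That bound sets the OGT_SCKO mean against, in each Ctrl array, the lowest signal among probes well above background, or the Tnc reading itself where that was higher. With normexp background correction, which draws dim values together, the log2 fold change was 1.39 in place of the fitted 2.87. That is also below the bound of 1.57, so the bound does not hold under normexp. With slide as a fixed block Tnc no longer passed (adjusted p = 0.0691), and the 1 Ctrl array on that slide did not measure it.

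The other Tnc probe, on base 2590, gave a different reading. It stood at -6.65, -7.65 and -7.22 in OGT_SCKO, against -6.95, -6.31 and -7.03 in Ctrl, not well above background on any of the 6 arrays. It was therefore not tested, and the rise of Tnc rests on 1 probe. Tnxb, tenascin-X, is a structural tenascin of fibroblast matrix that organises collagen fibrils. Its signal was 4.41, 3.58 and 4.03 in OGT_SCKO and 3.98, 4.19 and 4.04 in Ctrl. The OGT_SCKO pools spanned the whole range of the Ctrl pools, with a log2 fold change of -0.06 (95% interval -0.57 to 0.45, limma adjusted p = 0.855). Its sign turned with quantile normalisation (0.071) and without OGT_SCKO 2 (0.15).

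Fn1, fibronectin, forms fibrils on which cells spread through integrins and on which other matrix proteins assemble. It read 4.38, 4.34 and 4.22 in OGT_SCKO pools and 3.91, 3.74 and 3.88 in Ctrl pools. This was a rise of 1.38-fold with little spread in either group (log2 change 0.47 with SE 0.11 and, by limma, adjusted p = 0.0239). The call was the least stable of the 6: it ended when Ctrl 1, Ctrl 2, Ctrl 3 or OGT_SCKO 3 was left out (adjusted p = 0.0662, 0.0877, 0.0795 and 0.0650) and with slide as a block (0.0980). With quantile normalisation the log2 fold change was 0.63.

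Periostin, encoded by Postn, binds integrins, collagen and tenascin-C and is a product of fibroblasts and of Schwann-lineage cells. The OGT_SCKO pools lay close together at 0.97, 0.90 and 0.90, against -1.45, -0.61 and -0.74 in the Ctrl pools. Postn rose 3.62-fold (log2 change 1.86 with SE 0.22 and, by limma, adjusted p = 0.00257). Ctrl 1 was the lowest pool, and without it the log2 fold change was 1.60. This was the 1 gene of the 10 that passed under every alternative run, with log2 fold changes of 1.53 to 2.02, including slide as a fixed block (1.53, adjusted p = 0.0381).

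Sparc, osteonectin, binds collagen and lowers cell adhesion. Its brighter probe read 6.47, 5.95 and 6.10 in OGT_SCKO, against 6.59, 6.79 and 6.34 in Ctrl. Overlapping pools and a log2 fold change of -0.40 (95% interval -0.83 to 0.03) did not pass the test (limma adjusted p = 0.155). Its other probe gave -0.34 (SE 0.23, limma adjusted p = 0.298 over all kept probes, of which 23.5% were called), and quantile normalisation moved the brighter probe to -0.04.

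Osteopontin, encoded by Spp1, is a secreted phosphoprotein of Schwann cells and macrophages that carries the integrin site shown in its probe sequence. Levels were 5.43, 4.69 and 5.39 in OGT_SCKO pools and 4.71, 4.79 and 4.83 in Ctrl pools. OGT_SCKO 1 and OGT_SCKO 3 stood above all Ctrl pools and OGT_SCKO 2 below all of them. Over all pools the log2 fold change of Spp1 was 0.40 (95% interval -0.10 to 0.89, limma adjusted p = 0.203). The gene passed without OGT_SCKO 2 (log2 fold change 0.64, adjusted p = 0.00993) and with quantile normalisation (0.63, adjusted p = 0.0152). OGT_SCKO 2 had the highest 75th percentile of raw signal of the 6 arrays (6136) and Ctrl 2 the lowest (2749), and Sparc, Tnxb and Spp1 were each lowest in OGT_SCKO 2. The part of this scaling in their values was not tested.

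Thbs1 and Thbs2 encode trimeric thrombospondins, which bind CD36, CD47 and integrins and restrain vessel growth; thrombospondin-1 also activates latent TGF-beta. Thbs2 read 0.76, 0.82 and 0.85 in OGT_SCKO and 0.06, 0.31 and 0.21 in Ctrl, with no overlap. It rose 1.53-fold (log2 change 0.61 with SE 0.11 and, by limma, adjusted p = 0.0102), and did not pass without OGT_SCKO 3 (adjusted p = 0.0545) or with slide as a block (0.127). Thbs1 had a change of like size and a wider spread, at 0.05, 0.32 and -0.49 in OGT_SCKO, against -0.46, -0.68 and -0.88 in Ctrl. OGT_SCKO 3 lay just under the highest Ctrl pool, and the log2 fold change of 0.63 (95% interval 0.09 to 1.17) did not pass (limma adjusted p = 0.0894). Without OGT_SCKO 3, Thbs1 had a log2 fold change of 0.86 and passed (adjusted p = 0.0430). Whether the 2 genes differ in their change was not tested.

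Versican, encoded by Vcan, is the large hyaluronan-binding proteoglycan of the provisional matrix. Its brightest probe, on transcript base 12207, read 0.58, 0.85 and 0.71 in OGT_SCKO, against 0.04, 0.03 and 0.09 in Ctrl. By that probe Vcan rose 1.58-fold (log2 change 0.66 with SE 0.11 and, by limma, adjusted p = 0.00851). The probe on base 1428 moved the other way without passing, at 0.03, -1.19 and -0.39 in OGT_SCKO, against -0.18, 0.28 and -0.22 in Ctrl (log2 change -0.47 with SE 0.31 and, by limma, adjusted p = 0.296 over all probes). The probes on bases 12207 and 1428 are each listed with 4 RefSeq transcripts, 3 of them shared. Another probe, on base 3166, stayed at background level on all 6 arrays. The mean of the 2 usable probes had a log2 fold change of 0.09 (limma adjusted p = 0.674), so the rise of Vcan rests on 1 probe.

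Biglycan, encoded by Bgn, is a small leucine-rich proteoglycan that binds collagen and TGF-beta. It read 1.20, 1.60 and 1.38 in OGT_SCKO pools, against 0.65, 0.49 and 0.18 in Ctrl pools. The rise was 1.94-fold (log2 change 0.96 with SE 0.17 and, by limma, adjusted p = 0.00947) and passed whichever single pool was left out. With slide as a block the log2 fold change was 0.91 (adjusted p = 0.0982).

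**Figure D3:**
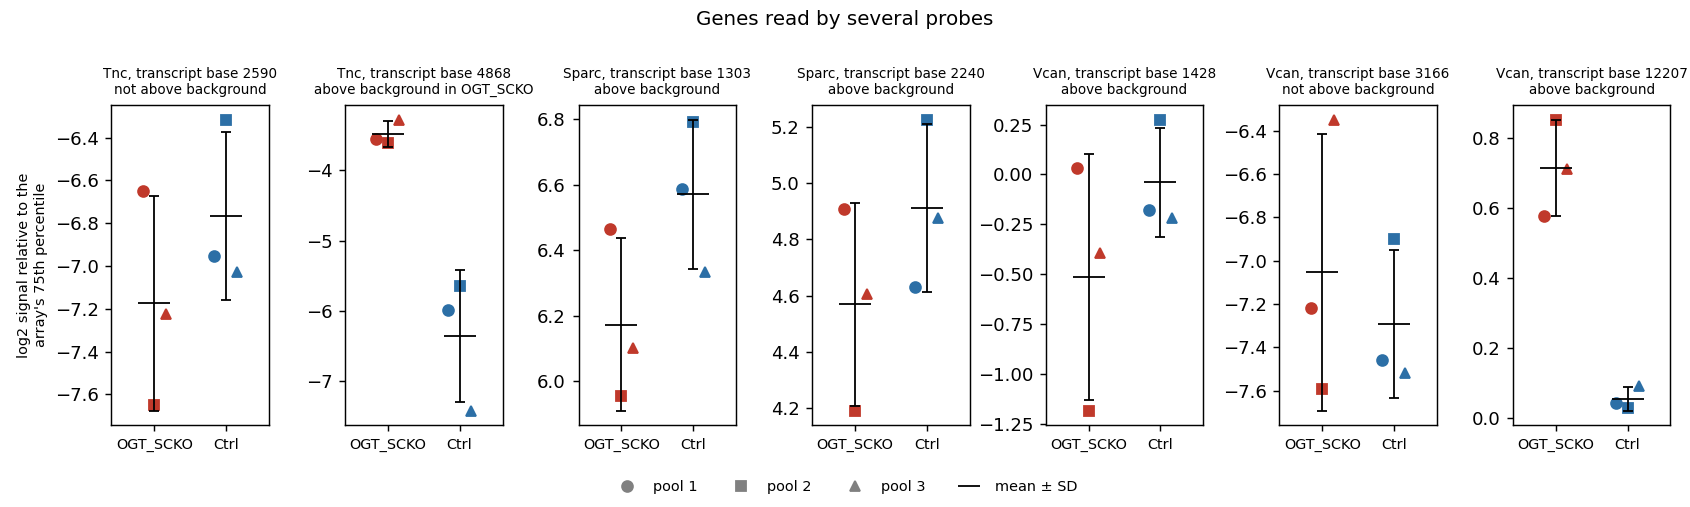
Log2 signal of the 7 probes of Tnc, Sparc and Vcan (vertical axis, relative to the array's 75th percentile, scaled separately per probe) in each OGT_SCKO and Ctrl pool, with mean ± SD. The 2 Sparc probes show the same order of group means, whereas Tnc and Vcan each have 1 probe that separates the groups and others that do not.

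**Figure D4:**
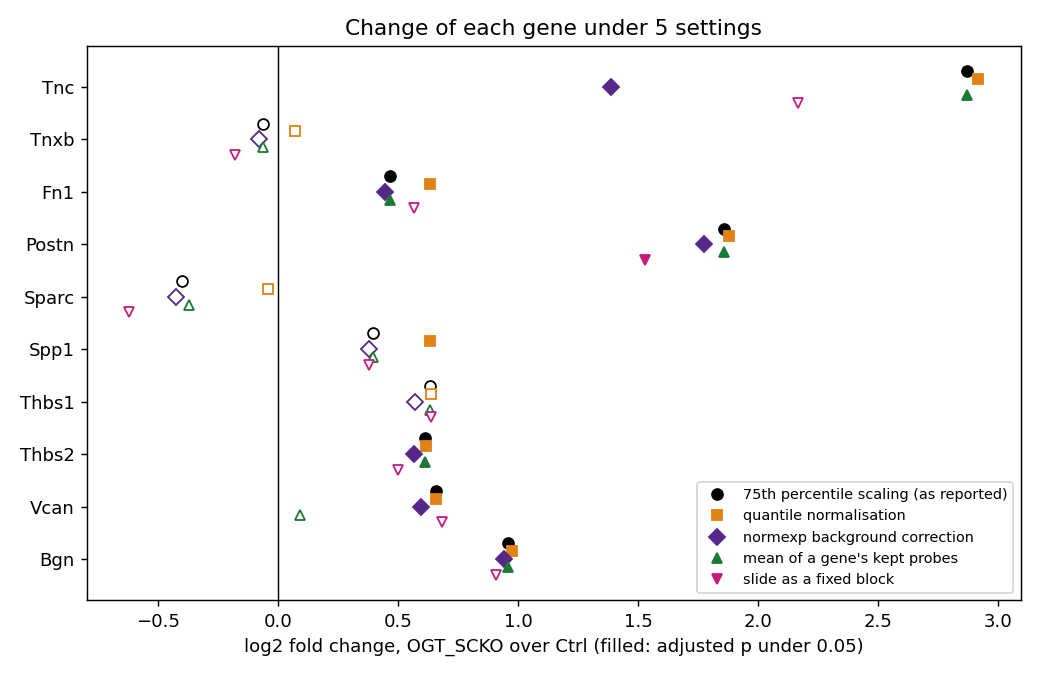
Log2 fold change of each gene (horizontal axis, OGT_SCKO over Ctrl) as reported and under quantile normalisation, normexp background correction, the mean of a gene's kept probes and slide as a fixed block; filled symbols passed at an adjusted p under 0.05. Postn is filled throughout, Tnc, shown at fitted values that rest on Ctrl background readings, moves with normexp and Vcan with the mean of its probes.

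Receptors that read these proteins were examined as a list of 18 genes, 17 of them measured. In OGT_SCKO nerves 5 rose, 12 did not pass and none fell, with a median log2 fold change of 0.19. The share called was 29.4%, against 23.3% of all genes tested, and 11.2% of all genes were called higher. Itgb8, the integrin chain that pairs with alpha V and releases active TGF-beta, rose 4.88-fold (log2 change 2.29 with SE 0.13 and, by limma, adjusted p = 0.000214). Its pools stood at 1.29, 1.57 and 1.67 in OGT_SCKO and -0.88, -0.75 and -0.71 in Ctrl, and slide as a block left it at 2.26 (adjusted p = 0.00628). Itga4, the alpha 4 chain that binds the osteopontin site and fibronectin, rose 1.78-fold (limma adjusted p = 0.00474; 0.0509 with slide as a block). Cd44, a receptor for hyaluronan and osteopontin, rose 1.57-fold (limma adjusted p = 0.0158; 0.107 with slide as a block). Itga8, whose integrin binds tenascin-C, fibronectin and osteopontin, rose 1.64-fold (limma adjusted p = 0.0231; 0.0380 with slide as a block). Sdc4, a heparan sulfate proteoglycan that works with integrins on fibronectin, rose 1.85-fold (limma adjusted p = 0.0346; 0.0782 under the slide block) and was named after its value was seen. Itga9, the other chain for the osteopontin site, had a log2 fold change of -0.0043 (SE 0.14).

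Of 47 measured matrix genes in the 5 lists of relatives, 3 rose, 8 fell and 36 did not pass, or 23.4% called, close to the 23.3% of all genes. With the receptors, 8 of 64 rose and 8 fell. In the wider tenascin, thrombospondin and SPARC family, Comp, the cartilage thrombospondin, fell 2.11-fold (limma adjusted p = 0.0393) and Spock2, a SPARC-related proteoglycan, fell 1.36-fold (0.0333), while 8 of 10 did not pass. Both calls ended with normexp, at log2 fold changes of -0.48 and -0.22 (adjusted p = 0.462 and 0.411), and with slide as a block (0.111 and 0.172). Thbs3 had a log2 fold change of -0.46 (limma adjusted p = 0.055) and Fstl1, another SPARC relative, 0.37 (0.0982). Tnn, Tnr and Spock3 had no probe above background on all arrays of a group.

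Among the CCN genes, a matricellular family that binds integrins, Ccn1 and Ccn4 moved in opposite directions. Ccn1 rose 2.17-fold (log2 change 1.11 with SE 0.15 and, by limma, adjusted p = 0.00344) and Ccn4 fell 2.05-fold (log2 change -1.03 with SE 0.10 and, by limma, adjusted p = 0.00114). Ccn3 had a log2 fold change of 0.84 (limma adjusted p = 0.0504) and Ccn2 of -0.11 (0.643). Slide as a block gave an adjusted p of 0.0181 for Ccn4, which passed, and 0.0535 for Ccn1, which did not.

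Small leucine-rich proteoglycans, the family of biglycan, gave 1 higher and 2 lower of 11 measured, with a median log2 fold change of -0.29. The share called was 27.3%, near the 23.3% of all genes tested. Ogn, osteoglycin, fell 2.70-fold, with 4.60, 4.39 and 4.65 in OGT_SCKO, against 5.90, 6.18 and 5.85 in Ctrl (limma adjusted p = 0.00104; 0.00904 with slide as a block). Fmod, fibromodulin, a regulator of collagen fibrils, fell 2.30-fold (limma adjusted p = 0.00355) and Epyc, epiphycan, rose 2.18-fold (0.0138). With slide as a block Fmod passed (adjusted p = 0.0200) and Epyc did not (0.0531). Ecm2 had a log2 fold change of -0.43 (limma adjusted p = 0.0703). Biglycan and osteoglycin, of the same family, thus had called changes of opposite sign.

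Of 15 partners of fibronectin and elastic fibres 1 rose and 3 fell, or 26.7% called, near the 23.3% of all genes tested. Fbn2, the fibrillin typical of developing tissue, rose 2.22-fold (limma adjusted p = 0.0141). Mfap5, a microfibril glycoprotein, fell 2.03-fold (limma adjusted p = 0.00695), Fbln1, fibulin-1, 1.69-fold (0.0136) and Eln, elastin, 2.14-fold (0.0202). Slide as a block ended the calls of Fbn2 and Mfap5 (adjusted p = 0.134 and 0.0616) and kept those of Fbln1 and Eln (0.0487 and 0.0246). Among 7 measured lecticans and hyaluronan partners, the family of versican, limma called 0, and Bcan was nearest, with a log2 fold change of 0.69 (limma adjusted p = 0.0518). Has3, Has2 and Hapln3 had log2 fold changes of -0.55, 0.62 and -0.13.

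**Figure D5:**
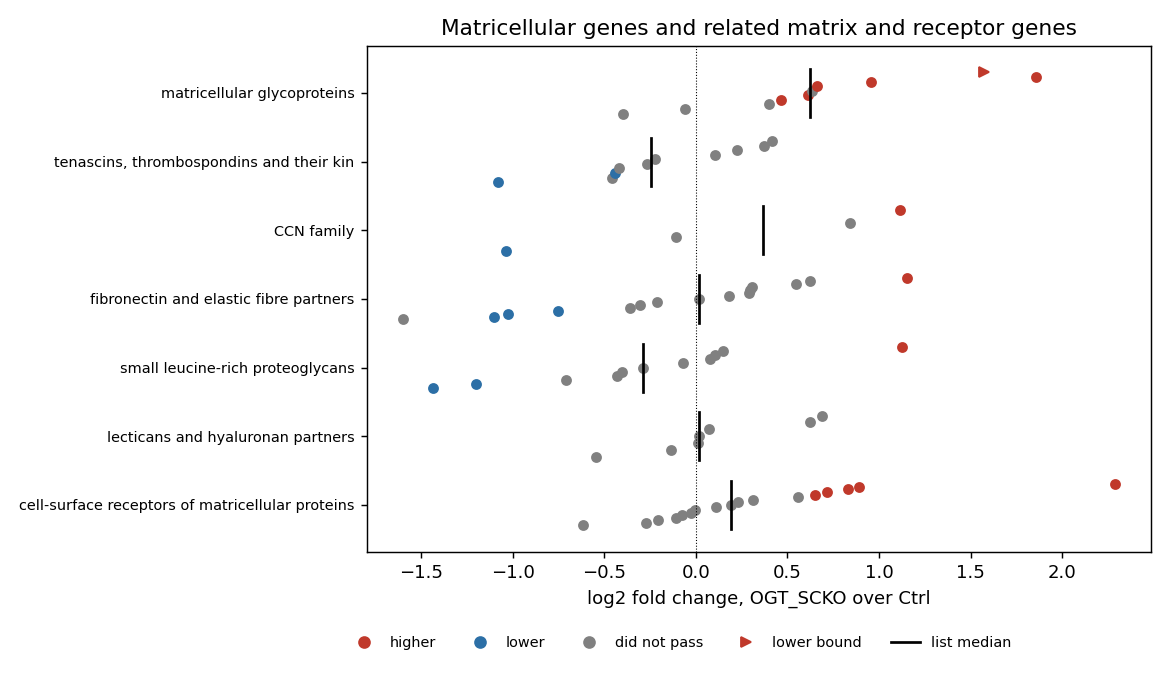
Log2 fold change (horizontal axis, OGT_SCKO over Ctrl) of each measured gene in the matricellular list and the 6 lists of relatives and receptors, with red for genes called higher, blue for called lower, grey for those that did not pass and a black bar at each list's median. Tnc is a triangle at its lower bound. The matricellular genes have a median of 0.62 and the largest receptor value is Itgb8 at 2.29.

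The genes most like the 3 largest called changes were found by the root mean square difference of log2 values, each centred on its mean over the 6 arrays. Nearest to Tnc were Scx, a tendon and ligament transcription factor (difference 0.30), Nxf7 (0.38) and Map3k21 (0.42). Since no Ctrl array measured Tnc well above background, that likeness is partly to background readings. With normexp the log2 fold changes of Scx, Nxf7 and Map3k21 were 1.75, 1.18 and 2.32, in place of 2.99, 2.75 and 3.07. By this measure over 6 arrays, genes with a like group difference come out near each other. Stk32a (0.14), Nptx2 (0.17) and Shisa8 (0.18) were nearest to Postn. Pask (0.051), Atf3, an injury-induced transcription factor (0.069), and Galnt6 (0.080) were nearest to Bgn.

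Promoters were searched for TGANTCA, the core letters bound by AP-1, the family of JUN, on both strands of the window from 250 bases before to 50 after each RefSeq start (GRCm38.p6). Of 11 promoter entries of 8 of the genes, 1 held it, against 7.81% of 32851 promoters. It was that of Tnxb, which did not pass the test, where the motif (capitals) begins 55 bases before the start.
Tnxb, chr17:34670460-34670506, plus strand, GRCm38.p6: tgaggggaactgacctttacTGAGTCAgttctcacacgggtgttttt

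The nerve label was checked on 10 Schwann cell markers, all measured above background, with summed linear signals of 326 to 521 times the array's 75th percentile in OGT_SCKO and 493 to 651 times in Ctrl. S100b fell 1.59-fold and Prx 1.44-fold, and Ngfr, raised in injured Schwann cells, rose 1.71-fold (limma adjusted p = 0.0114, 0.0375 and 0.0206). Under the slide block none of the 3 passed (adjusted p = 0.0929, 0.130 and 0.185), and Prx did not with quantile normalisation. In the lists of other cells that make matricellular proteins, the shares called were 22.2% for fibroblasts, 28.6% for perineurial and for mural cells and 30.0% for macrophages, near the 23.3% of all genes. Of 9 fibroblast markers 2 fell, Dpt by 1.99-fold and Clec3b by 2.57-fold, and Pi16 and Col1a1 did not pass (log2 fold changes -0.97 and -0.62). The summed linear signal of the fibroblast list, in units of the array's 75th percentile, ran from 189 to 340 in OGT_SCKO and from 283 to 420 in Ctrl. Both the Schwann cell and the fibroblast sums were lowest in OGT_SCKO 2 and highest in Ctrl 2. Those arrays had the highest (6136) and the lowest (2749) 75th percentile of raw signal, by which the sums are divided. The part of this scaling in these and the other sums was not tested. With slide as a block Dpt passed (adjusted p = 0.0490) and Clec3b did not (0.107). Of 10 macrophage markers 3 rose, Gpnmb by 2.50-fold, Trem2 by 1.80-fold and Cx3cr1 by 2.08-fold, and of these only Gpnmb passed under the slide block (adjusted p = 0.0314, 0.0714 and 0.209). Among the other 7, Cd14, Csf1r and Mrc1 had log2 fold changes of -0.36, -0.31 and -0.17 and Cd68 of 0.012, named after their values were seen. The macrophage list had sums of 39.7 to 50.9 in OGT_SCKO and 41.2 to 48.5 in Ctrl.

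Over all genes tested, 23.3% were called and 12.1% were called lower, the shares beside which the counts below stand. Perineurial markers gave 2 lower of 7, Krt19 by 2.19-fold and Lypd2 by 2.27-fold, with sums of 67.6 to 93.5 in OGT_SCKO and 80.8 to 106 in Ctrl. Of 7 mural markers Pdgfrb rose 1.61-fold and Kcnj8 fell 1.61-fold. Neither passed under the slide block (adjusted p = 0.0635 and 0.0925), and Kcnj8 was at -0.22 with normexp (adjusted p = 0.688). Mural sums were 36.5 to 62.2 in OGT_SCKO, against 58.1 to 74.1 in Ctrl. The perineurial and mural sums, too, were lowest in OGT_SCKO 2 and highest in Ctrl 2, as were the endothelial and adipocyte sums given next. The skeletal muscle sum was lowest in OGT_SCKO 2 and highest in Ctrl 3. No endothelial marker of 7 was called, with sums of 4.06 to 6.33 in OGT_SCKO and 7.32 to 8.68 in Ctrl. These sums weigh the brightest probe most, that of Kdr, which had a log2 fold change of -0.89 (limma adjusted p = 0.0724). The other endothelial markers had log2 fold changes of -0.37 to 0.027, so the lower sums do not stand for the list as a whole. Adipocyte markers gave 4 lower of 5, or 80% (Cidec, Fabp4, Adipoq and Retn), with sums of 0.202 to 0.646 in OGT_SCKO and 1.06 to 4.41 in Ctrl. Cidec, Adipoq and Retn passed the filter on dim probes only through Ctrl, where they were high. They were well above background on 1, 1 and 2 OGT_SCKO arrays, so their fold changes rest partly on background readings. All 4 adipocyte calls ended under the slide block (adjusted p of 0.0623 to 0.0991) and with normexp (0.0508 to 0.155), under which the log2 fold change of Cidec was -1.27 in place of -2.61 and that of Adipoq -2.35 in place of -4.24. Skeletal muscle markers gave 4 lower of 6, or 66.7% (Actn3, Acta1, Tnnt3 and Myh4), with sums of 0.709 to 1.29 in OGT_SCKO and 2.30 to 2.53 in Ctrl. With normexp only Actn3 passed, and Acta1, Tnnt3 and Myh4 had adjusted p = 0.145, 0.0582 and 0.241, while with slide as a block Actn3 and Tnnt3 passed and Acta1 (0.116) and Myh4 (0.194) did not. Lep, Ckm and Ntn4 had no probe that passed the filter. The part of these markers in the matricellular changes was not tested.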

How the data were processed

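Each array carried 1 pool's RNA labelled with a red dye. Per the file headers, the authors' intensity values come from Agilent Feature Extraction 11.5.1.1, which subtracted background, removed trends across the array and put surrogates for very low signals, with no scaling between arrays. All columns of the deposited log2 table share one distribution, so the table was taken as quantile normalised and used as an alternative only; its other steps are not given in the sources used here.

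Log2 processed signal minus the array's 75th percentile was computed for 43020 spots that were not controls, leaving out spots with outlier flags (40 probes lost at least 1 array), and averaged over the spots of a probe. Probes were kept where all arrays of 1 group or both measured them well above background (24290), and a gene was read by its kept probe with the highest mean. One gene could not be fitted, which left 19060. Of 39429 probes, 27655 were named through a RefSeq gene table and 1711 of these got a newer symbol; the others kept the name in the files. Groups were compared with limma 3.58.1 in R 4.3.3, without covariates, adjusted over all genes. Single probes were adjusted over all kept probes. The script was tested on simulated data. The number of arrays limits the precision.

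All 10 genes are named, with up to 4 genes of smallest p from each of 6 related lists and 8 marker lists and 3 genes nearest in pattern to each of the 3 largest called changes. Marker genes that did not pass are mostly given as counts, and one is not reported here. Members and lists were chosen with earlier results of these data known. Alternatives were other scalings, normexp with an offset of 50, other filters, probe means, the deposited values, low values raised to the lowest signal well above background, slide or replicate blocks, slide 1 alone, another variance model, a threshold of 0.01 and leaving out each pool.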

Additional observations from a re-analysis of the deposited data

How the results depend on the processing

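Of 189 values of the 10 genes under alternatives, 162 kept their sign and side of the threshold, 20 kept the sign and no longer passed, 4 came to pass and 3 changed sign. Those 3 were Tnxb, at 0.071 with quantile normalisation, 0.066 with the deposited log2 values and 0.15 without OGT_SCKO 2. With 1 pool left out Tnxb ran from -0.26 to 0.15. The 162 include genes that were not called and stayed so: 16 for Tnxb, 19 for Sparc, 16 for Spp1 and 18 for Thbs1. Another 17 are of Tnc, whose Ctrl readings are background. Of 19 values each, Postn kept 19, Bgn 16, Thbs2 15, Vcan 15 and Fn1 11. The count of 6 matricellular genes called was 1 with slide as a fixed block, 2 within slide 1 (where the lone Ctrl array is assumed to vary like the OGT_SCKO pools, and Tnc is one of the 2) and 2 with replicate number as a block, and 5 to 7 when 1 pool was left out. The 16 related genes called became 8, 3 and 8 in those 3 fits, 7 at an adjusted p under 0.01, and 8 to 22 with 1 pool left out. The 4438 calls over all genes became 1224, 406 and 1475, with 1735 at 0.01, 2722 with normexp, 2629 with no filter on dim probes and 1974 to 5629 with 1 pool left out. The lowest of these was without OGT_SCKO 3, and leaving out Ctrl 1, Ctrl 2 or Ctrl 3 gave 2447, 2558 and 2101. For related genes the lowest counts were 8 without Ctrl 3, 10 without OGT_SCKO 3 and 11 without Ctrl 2. Tnc has no value under the filter on all 6 arrays, since no Ctrl array measured it above background. Pools with the same replicate number did not deviate together (correlations -0.27, -0.53 and 0.06 over genes), and no OGT_SCKO pool correlated best with its own number, so the numbers were not taken as pairs. With that block Postn passed among the 10, and Tnc in a fit that takes its Ctrl background readings as they are. With slide as a random block (correlation -0.14 between arrays of a slide) 6 passed. The blocks and the fits without a pool have fewer residual degrees of freedom. Slide as a fixed block also moved the estimates, that of Thbs2 from 0.61 to 0.50 and that of Fn1 from 0.47 to 0.57. Without OGT_SCKO 1 the calls over all genes were 5629, more than with all pools. Why a call ended was not tested.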
